A study of Mus musculus with 2 samples.

Results

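Neutrophil granule genes, 10 in number, were followed across 2 single-cell libraries of mouse liver: Prtn3, Elane, Mpo, Ctsg, Ltf, Ngp, Camp, S100a8, S100a9 and Mmp9, which are 10 of the 31053 genes listed. They were chosen by symbol, with earlier results of these libraries known, so their levels are given as a description. The pIVCL library came from C57BL/6 liver. Partial inferior vena cava ligation was done at 8 to 10 weeks of age, and the liver was taken 6 weeks later. The operation congests the liver and raises portal pressure. The Control library came from C57BL/6 liver that its title calls healthy, although the same growth text, with the ligation, stands beside it. Both were mixed suspensions of hepatocytes and non-parenchymal cells. The number of animals behind a library, and whether the control animal had a sham operation, are not stated in the sources used here. With 1 library a group there was no test. Differences compare these libraries, not the conditions, and every interval is a 95% interval that covers counting error only.

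Neutrophils fill their granules in the order in which they mature. Primary (azurophilic) granules are packed in promyelocytes with the serine proteases proteinase 3 (Prtn3), neutrophil elastase (Elane) and cathepsin G (Ctsg) and with myeloperoxidase (Mpo), and transcription of these genes then stops. Secondary granules follow, with lactoferrin (Ltf), neutrophilic granule protein (Ngp) and cathelicidin (Camp), and gelatinase granules with Mmp9 come later still. S100a8 and S100a9 form calprotectin, a cytosolic protein that stays abundant in mature neutrophils and is also made by monocytes. Young monocytes and their progenitors transcribe primary granule genes as well. Blood-borne mature neutrophils therefore normally hold little primary granule RNA, and granulocytes are made in the bone marrow in the adult.

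The 4 primary granule genes lie on 3 chromosomes of GRCm38 (GENCODE M21). Prtn3 (chr10:79874476-79883174) and Elane (chr10:79886247-79888215) are neighbours on the plus strand, 3072 bases apart, while Mpo lies at chr11:87793581-87804413 on the plus strand and Ctsg at chr14:56099881-56102574 on the minus strand. Ltf (chr9:111019271-111042767), Ngp (chr9:110419747-110423012) and Camp (chr9:109847379-109849617) share chromosome 9. S100a8 (chr3:90668978-90670035) and S100a9 (chr3:90692632-90695721) lie 22596 bases apart, and Mmp9 lies at chr2:164940780-164955850. Prtn3 overlaps Plppr3 and Mpo overlaps Gm11505, each on the opposite strand, and the sources used here do not say whether counting used strand.

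The upstream sequences of 7 genes are shown because the barcodes below are sorted by the 4 primary and the 3 secondary granule genes. Each is the 250 bases before the RefSeq gene start (GRCm38.p6), written 5′ to 3′ on the gene's strand, with capitals for the letters GAGGAAG (the core that PU.1 binds), TTGCNNAA (a C/EBP core) and AGATAA (the core recognised by erythroid GATA factors), searched on both strands with no overlap between the matches shown.
Prtn3 (chr10:79879417-79879666, plus strand): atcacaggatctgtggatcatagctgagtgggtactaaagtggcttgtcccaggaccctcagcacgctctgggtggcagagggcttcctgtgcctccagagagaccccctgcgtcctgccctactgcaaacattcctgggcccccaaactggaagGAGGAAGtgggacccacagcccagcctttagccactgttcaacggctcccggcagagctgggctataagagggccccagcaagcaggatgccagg
Elane (chr10:79886062-79886311, plus strand): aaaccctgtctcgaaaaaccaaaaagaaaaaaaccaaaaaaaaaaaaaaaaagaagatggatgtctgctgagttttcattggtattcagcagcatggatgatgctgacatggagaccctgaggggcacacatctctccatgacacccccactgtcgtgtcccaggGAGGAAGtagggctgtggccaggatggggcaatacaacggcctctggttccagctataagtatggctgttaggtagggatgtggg
Mpo (chr11:87793534-87793783, plus strand): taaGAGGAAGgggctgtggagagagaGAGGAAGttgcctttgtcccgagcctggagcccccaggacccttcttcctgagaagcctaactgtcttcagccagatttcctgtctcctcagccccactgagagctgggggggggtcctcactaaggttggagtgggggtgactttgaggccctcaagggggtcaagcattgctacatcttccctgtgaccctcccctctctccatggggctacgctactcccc
Ctsg (chr14:56102575-56102824, minus strand): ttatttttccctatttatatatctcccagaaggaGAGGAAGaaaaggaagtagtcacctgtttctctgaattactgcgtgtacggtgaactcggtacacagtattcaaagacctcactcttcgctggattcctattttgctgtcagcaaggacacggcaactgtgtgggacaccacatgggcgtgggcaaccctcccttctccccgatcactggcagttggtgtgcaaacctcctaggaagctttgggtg
Ltf (chr9:111019042-111019291, plus strand): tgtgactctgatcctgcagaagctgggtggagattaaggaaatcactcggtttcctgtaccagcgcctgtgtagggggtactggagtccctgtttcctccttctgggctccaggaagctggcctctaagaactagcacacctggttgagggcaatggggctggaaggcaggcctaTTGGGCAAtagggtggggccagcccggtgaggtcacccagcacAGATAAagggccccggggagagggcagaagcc
Ngp (chr9:110419558-110419807, plus strand): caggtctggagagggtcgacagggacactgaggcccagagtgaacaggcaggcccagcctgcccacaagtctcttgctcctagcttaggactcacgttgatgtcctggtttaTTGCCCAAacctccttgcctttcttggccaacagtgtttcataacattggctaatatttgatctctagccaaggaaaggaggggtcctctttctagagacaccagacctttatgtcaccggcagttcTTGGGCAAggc
Camp (chr9:109849457-109849706, minus strand): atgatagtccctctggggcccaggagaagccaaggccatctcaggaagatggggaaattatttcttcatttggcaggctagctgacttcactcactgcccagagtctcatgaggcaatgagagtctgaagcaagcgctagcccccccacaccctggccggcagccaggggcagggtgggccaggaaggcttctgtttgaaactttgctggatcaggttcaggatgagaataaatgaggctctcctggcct
GAGGAAG was found upstream of Prtn3, Elane, Mpo and Ctsg, and also of S100a8, which makes 5 of the 9 members matched, against 10.6% of 32851 RefSeq promoters of the same length. TTGCNNAA was found upstream of Ltf, Ngp and S100a9, 3 of 9, against 9.56% of promoters. AGATAA was found upstream of Ltf and S100a9, 2 of 9, against 9.99%. The window of Camp held 0 matches. Upstream here means before the RefSeq start, which can differ from the GENCODE start. The Prtn3 window lies inside the GENCODE gene given above. The windows of Elane, Mpo, Ltf, Ngp, Camp and S100a8 run past the GENCODE starts. These matches describe letters in the windows and say nothing of what binds there.

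The deposited files held 7042 pIVCL barcodes with 38154000 UMIs and 3574 Control barcodes with 24637681 UMIs, where a UMI is 1 counted RNA molecule. Of these, 5443 pIVCL and 2718 Control barcodes were kept, with medians of 2005 and 5263.5 UMIs. The kept pIVCL cells were thus shallower, and a level is stated in CPM, the UMIs of a gene in every 1000000 UMIs of the same cells. The libraries shared 13 barcode sequences, and 0 of them held 10 or more UMIs of a granule gene group. Doublet calling marked 0.0551% of pIVCL and 0.293% of Control barcodes that passed the filter, far under the expected 6%, and the number of doublets still present was not measured.

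The label held for most secondary granule and calprotectin RNA of pIVCL, which lay in cells named from other genes. Neutrophil-like cells held 20158 of the 20950 secondary granule UMIs and 85287 of the 89476 calprotectin UMIs. Cluster 18 was named neutrophil-like from 12 markers that include no member. In pIVCL each of the 12 was more than 10 times higher there than in all other cells. These markers gave the name, so their levels are no separate support for it. The cluster held 85 of 5443 pIVCL cells (1.56%, interval 1.25% to 1.93%) and 3 of 2718 Control cells (0.110%, 0.0228% to 0.322%). Cxcr2, 1 of the 12 and the chemokine receptor of circulating neutrophils, stood at 313 CPM in these pIVCL cells and at 0.513 CPM in all other pIVCL cells. The label did not hold for most primary granule RNA of pIVCL, which lay outside these cells.

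Primary granule RNA was present in both libraries. Prtn3 had 806 UMIs in pIVCL and 166 in Control, or 29.2 and 8.39 CPM. Elane had 525 UMIs in pIVCL and 263 in Control. Mpo, the enzyme that makes hypochlorous acid, had 487 and 30 UMIs in pIVCL and Control. Ctsg had 224 UMIs in pIVCL and 2 in Control. The ratio of levels, pIVCL over Control, ranged from 1.43 for Elane (1.23 to 1.67) and 3.48 for Prtn3 (2.94 to 4.14) to 11.6 for Mpo (8.04 to 17.4) and 80.3 for Ctsg (22.0 to 667). The 4 genes summed gave a ratio of 3.17 (2.87 to 3.52).

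Secondary granule RNA, summed over its 3 genes, had a ratio of 11.7 (11.1 to 12.4), although the ratios of single genes of the 2 groups overlapped. Ltf, an iron-binding protein, had 2208 UMIs in pIVCL and 7 in Control, a ratio of 226 (110 to 563). Ngp had 7612 and 348 UMIs in pIVCL and Control, a ratio of 15.7 (14.1 to 17.5). Camp, the precursor of an antimicrobial peptide, had 11130 UMIs in pIVCL and 924 in Control, a ratio of 8.63 (8.07 to 9.24). S100a8 had 39309 and 3664 UMIs in pIVCL and Control, and S100a9 had 50167 and 4199. Their summed level was 3242 CPM in pIVCL and 397 CPM in Control, a ratio of 8.16 (7.97 to 8.35). Mmp9 had 413 UMIs in pIVCL and 209 in Control, a ratio of 1.42 (1.20 to 1.68). With at most 10% mitochondrial UMIs a barcode, the calprotectin ratio was 12.3 (12.1 to 12.6) and the Mmp9 ratio 2.23 (1.87 to 2.65).

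On the scale log2(CPM + 20), 5 of the 10 members (Ltf, Ngp, Camp, S100a8 and S100a9) were at least 1 higher in pIVCL, against 0.695% of the 14529 genes with at least 20 UMIs, and 0 of 10 were at least 1 lower, against 3.38%. The median log2 ratio was 1.55 over the members and -0.08 over all genes tested. The members were picked with this contrast known, and nothing is read from these counts. The added 20 CPM holds the log2 ratios of low genes down: Ctsg stood at 0.48 and Mpo at 0.81.

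**Figure D1:**
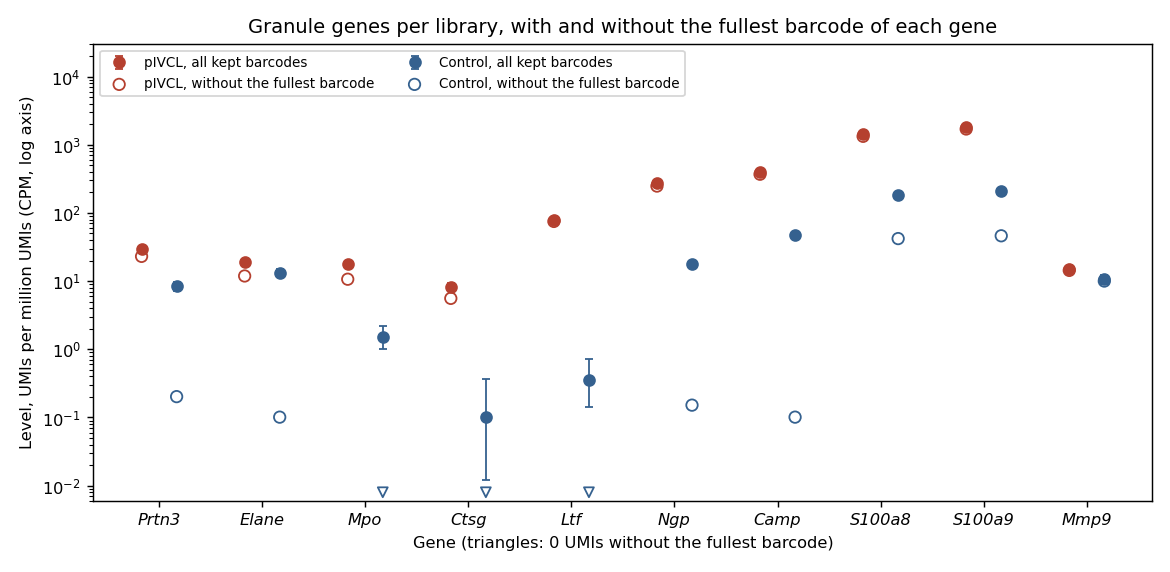
Level of each granule gene in CPM (log axis) in the pIVCL and Control libraries, with 95% Poisson intervals as bars. Filled points use all kept barcodes and open points leave out the barcode with the most UMIs of that gene; in Control Prtn3 keeps 4 UMIs and Camp 2 without it, while Mpo, Ctsg and Ltf keep 0 (triangles).

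A single Control barcode carried nearly all primary and secondary granule RNA of its library. It held 22204 UMIs of 3507 genes with 2.87% mitochondrial UMIs, and it was neutrophil-like. Its counts were 162 Prtn3, 261 Elane, 30 Mpo and 2 Ctsg UMIs, which are 455 of the 461 primary granule UMIs in Control. It also held 7 Ltf, 345 Ngp and 922 Camp UMIs, which are 1274 of the 1279 secondary granule UMIs. With 2833 S100a8 and 3286 S100a9 UMIs it carried 77.8% of Control calprotectin. Mmp9 was at 0 in it.

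The same barcode held genes of immature granulocytes. It had 89 UMIs of Fcnb (ficolin B), 14 of Ms4a3, which marks granulocyte and monocyte progenitors, 20 of Cebpe, a transcription factor of secondary granule genes, and 9 of Top2a, a gene of dividing cells. Of the 12 neutrophil markers it held 6, with 72 UMIs of Lcn2, 5 of Hdc, 3 of G0s2, 2 of Il1r2 and 1 each of Trem1 and Mxd1, while Retnlg, Csf3r, Cxcr2, Ly6g, Clec4d and Stfa2l1 were at 0. The other 2 neutrophil-like cells of Control had 3854 and 2902 UMIs, with 551 and 267 S100a8, 638 and 259 S100a9 and 2 and 3 Mmp9 UMIs, and 0 UMIs of the 7 primary and secondary granule genes.

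The ratio between the libraries turned on this barcode. With the fullest barcode left out of each library, an alternative chosen after the data were seen, the primary ratio was 177 (81.2 to 483) in place of 3.17. The secondary ratio became 2752 (1179 to 8476) in place of 11.7, and the calprotectin ratio 34.3 (32.7 to 36.0) in place of 8.16. Mmp9 stayed at 1.43 (1.20 to 1.71).

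**Figure D2:**
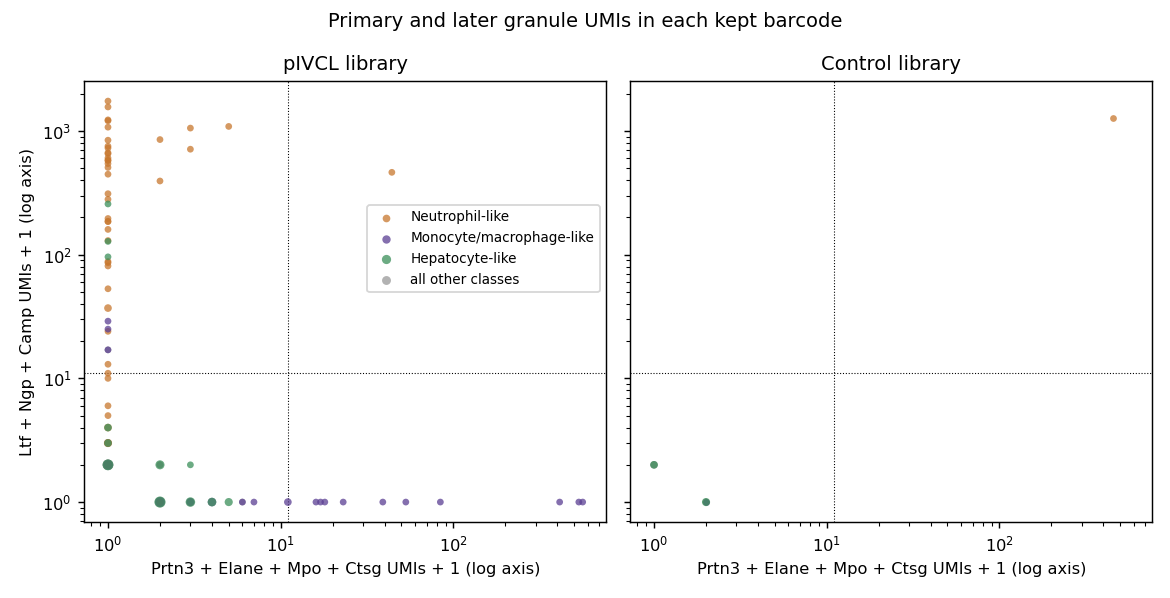
Each kept barcode with a primary or secondary granule UMI, placed by its primary granule UMIs (horizontal, plus 1, log axis) and its secondary granule UMIs (vertical, plus 1, log axis); larger points stand for several barcodes and dotted lines mark 10 UMIs. Past both dotted lines lie 1 barcode of pIVCL, at 43 primary and 462 secondary UMIs, and 1 of Control, at 455 and 1274.

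Barcodes were sorted by their primary and secondary granule UMIs. A barcode was called rich in a group when it held at least 10 UMIs of it, a cut on a count and not a cell type. Primary-rich barcodes numbered 13 in pIVCL and 1 in Control. They held 1807 of the 2042 primary UMIs in pIVCL (88.5%, 87.0% to 89.8%) and 455 of 461 in Control (98.7%, 97.2% to 99.5%). In pIVCL 3 barcodes had 5 to 9 primary UMIs, 5 had 10 to 19, and 170 had 1 to 4. Barcodes rich in secondary granule genes numbered 45 in pIVCL and 1 in Control. The overlap was 1 barcode in pIVCL, 1 of 13 primary-rich and 1 of 45 secondary-rich, and 1 of 1 in Control. Of all kept pIVCL cells 0.239% were primary-rich and 0.827% secondary-rich. Both kinds were rare, so the small overlap does not show that the groups of genes avoid each other.

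The 12 pIVCL barcodes rich in primary genes alone held 0 UMIs of Ltf, Ngp, Camp and Mmp9. Their depth was not low: total UMIs ran from 6889 to 20917, with a median of 14047. Of the 12, 4 held any calprotectin UMI, and 1 of these was rich in it, with 27 S100a8 and 8 S100a9 UMIs. The 44 pIVCL barcodes rich in secondary genes alone included 5 with any primary UMI.

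The overlapping pIVCL barcode had 6751 UMIs in all. It held 28 Prtn3, 14 Elane, 1 Mpo and 0 Ctsg UMIs beside 3 Ltf, 124 Ngp, 335 Camp, 1212 S100a8 and 1498 S100a9 UMIs. Like the Control barcode it was neutrophil-like, held Fcnb (17 UMIs) and had 0 UMIs of Retnlg. Elane exceeded Prtn3 in the Control barcode but not in this one.

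The 12 primary-only barcodes all lay in cluster 9, which the marker rule named monocyte/macrophage-like. That cluster was mixed: its leading genes were the immunoglobulin genes Igha, Jchain and Igkc beside S100a4, Lyz2, Lgals3, Mpo, Prtn3, Ms4a6c and Ccr2. It held 266 pIVCL and 51 Control cells. In it Prtn3 had 607 UMIs in pIVCL and 1 in Control, and Elane 501 and 0. At the finer clustering 10 of the 12 fell in a monocyte/macrophage-like cluster and 2 in a plasma cell-like one.

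The primary-only barcodes fell into 2 tiers, divided at 100 primary UMIs after their values were seen, and the other genes named for them were chosen likewise. The upper tier was 3 barcodes with 559, 531 and 411 primary UMIs. They held 99, 170 and 141 Prtn3, 197, 172 and 85 Elane, 193, 121 and 144 Mpo, and 70, 68 and 41 Ctsg UMIs. All 4 genes were thus high in each. The same 3 barcodes held 32, 31 and 13 UMIs of Ms4a3, 17, 7 and 1 of Prss57 (a serine protease of primary granules) and 2, 2 and 4 of Kit, the stem cell factor receptor of progenitors. Of the monocyte genes, Fn1 was at 0 in each of them and F13a1 was held by 2, with 1 and 3 UMIs. The barcode with 411 primary UMIs also held 3 Ccr2, 2 Csf1r and 16 Irf8 UMIs.

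The lower tier was 9 barcodes with 10 to 83 primary UMIs and a median of 17. Prtn3 was present in 9 of them (7 to 48 UMIs), Elane in 6 (0 to 25), Ctsg in 7 (0 to 12) and Mpo in 5 (0 to 6). Prtn3 made up 168 of their 263 primary UMIs, against 410 of 1501 in the upper tier. Kit and Prss57 were at 0 in all 9, and Ms4a3 had 3 UMIs in 1. Other progenitor genes divided the tiers less evenly. Cd34 stood at 163 CPM in the upper and 141 CPM in the lower tier, where 6 of 9 held it. Cdk6 stood at 254 and 122 CPM, and Myb at 308 and 28.2 CPM. Monocyte genes were held by most of them: Ly6c2 by 8 of 9 (median 28 UMIs), F13a1 by 8, Ccr2, the receptor that brings monocytes into tissue, by 8, and Fn1 by 9. The same 1 barcode lacked Ly6c2, F13a1 and Ccr2 and had 15 primary UMIs. Ly6c2 did not divide the tiers, since the upper 3 held 1, 30 and 34 UMIs of it. Irf8 stood at 290 CPM in the upper tier, all of it in 1 barcode, and at 376 CPM in the lower.

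**Figure D3:**
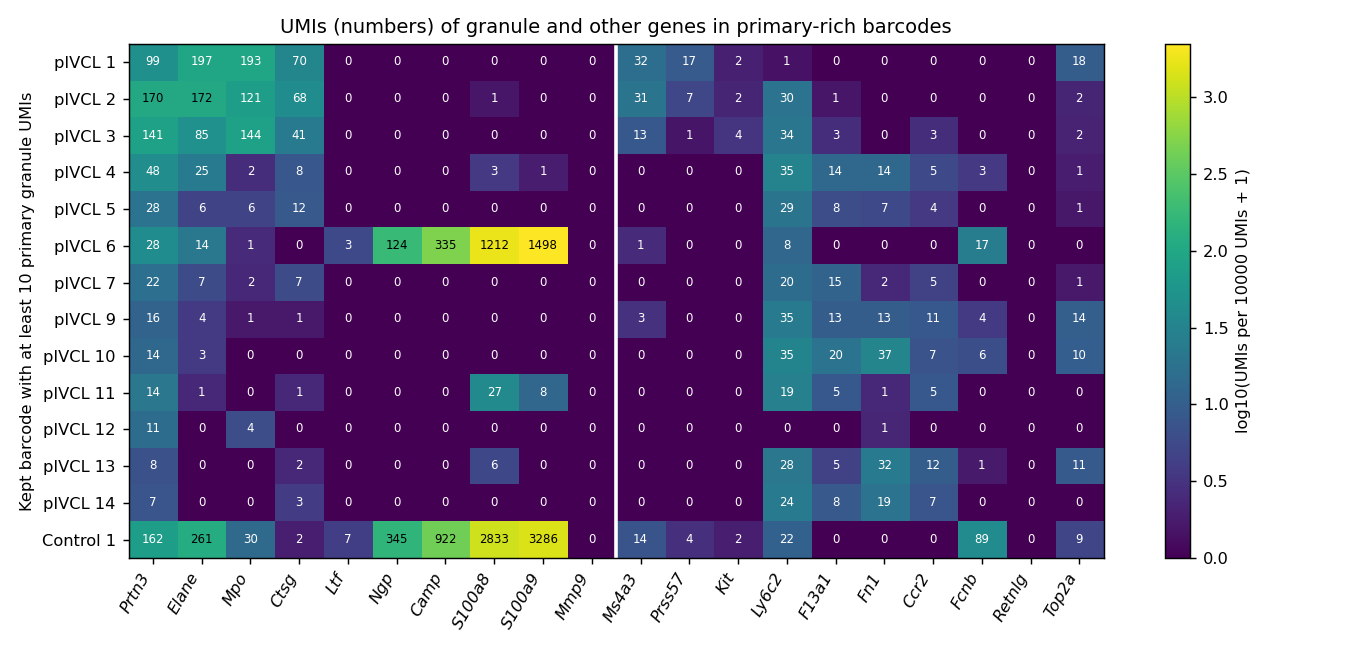
Each row is a kept barcode with at least 10 primary granule UMIs, 13 of pIVCL above 1 of Control; numbers are UMIs and colour shows their share of the barcode's UMIs on a log10 scale, with the 10 granule genes left of the white line and other genes right of it. The first 3 rows hold all 4 primary genes with Ms4a3, Prss57 and Kit; Ltf, Ngp and Camp are filled in 2 rows, pIVCL 6 and Control 1.

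Lists of related genes were compared between the primary-only barcodes and the 37 neutrophil-like pIVCL cells rich in secondary genes alone. Of 10 partners of primary granules 6 were higher in the primary-only barcodes. Of 8 myeloid progenitor genes 6 were higher in the primary-only barcodes, as were 9 of 10 monocyte genes and 11 of 13 cell cycle genes. Of 11 partners of secondary granules 0 were higher there, and of 13 mature neutrophil genes 2 were. Over the 2224 genes compared, 72.3% were higher in the primary-only barcodes. Ms4a3 stood at 489 CPM in the primary-only barcodes and 48.8 CPM in the secondary-rich cells, and Ly6c2 at 1795 and 507 CPM. Against the 251 pIVCL cells of cluster 9 rich in neither primary nor secondary genes, 10 of 10 partners of primary granules and 13 of 13 cell cycle genes were higher in the primary-only barcodes, where 43.2% of 6824 genes were. Stmn1, a gene of dividing cells, stood at 1145 CPM in them and 371 CPM in the rest. These barcodes were deeper than the rest, with median UMIs of 14047 and 3628, and the part of depth in these counts was not tested.

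Neutrophil-like cells of pIVCL split by secondary granule RNA. The sum of Ltf, Ngp and Camp ranged from 0 to 1743 UMIs a cell with a median of 3, and 35 cells were at 0, 12 held 1 to 9 and 38 held 10 or more. Ltf had 0 UMIs in 49 of the 85 cells, Ngp in 37 and Camp in 45. Calprotectin was present in all 85, from 1 to 5939 UMIs with a median of 530, and took 24.0% of the UMIs of the median cell. Primary granule genes were at 0 in 78 of the 85.

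The 37 cells rich in secondary genes alone and the 47 with less differed in other granule genes. S100a8 stood at 147884 CPM in the 37 and 60415 CPM in the 47, and S100a9 at 187590 and 80503 CPM. Mmp9 was nearer to even, with 1092 CPM in the 37 (954 to 1245) and 1308 CPM in the 47 (1092 to 1556). The secondary-rich cells were deeper, with median UMIs of 5265 and 1768, and the part of depth in this split was not tested.

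Genes outside the members differed as well. All 11 partners of secondary granules were higher in the 37 cells, where 28.3% of 1650 genes were. Lcn2, a siderophore-binding protein, stood at 15971 CPM in the 37 and 1932 CPM in the 47. Chil3 stood at 7642 and 20.4 CPM, and Cd177, a neutrophil surface protein, at 780 and 102 CPM. Cell cycle genes were higher in the 37 for 12 of 13, with Mki67 at 263 CPM in the 37 and 10.2 CPM in the 47. Mature neutrophil genes were higher in the 47 for 11 of 13. Csf3r, the G-CSF receptor, stood at 78.0 CPM in the 37 and 1268 CPM in the 47, Cxcr2 at 137 and 705 CPM, and Retnlg at 5628 and 14465 CPM. Ly6g, also a mature neutrophil gene, ran the other way, with 853 CPM in the 37 and 204 CPM in the 47. Hepatocyte transcripts were higher in the 47 for 7 of 7 genes, Alb standing at 3492 CPM in the 37 and 11817 CPM in the 47, and their part in these differences was not tested.

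Mmp9, the enzyme that gives gelatinase granules their name, was held by other cells in each library. In pIVCL 352 of its 413 UMIs (85.2%) lay in neutrophil-like cells, of which 67 of 85 held it. In Control 133 of 209 UMIs (63.6%) lay in T cell-like cells, 71 of 143 of which held it, and 51 lay in Kupffer-like cells, the resident macrophages of the liver. Without neutrophil-like cells, an alternative chosen after the data were seen, the level ratio of Mmp9 turned to 0.216 (0.160 to 0.289).

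Within classes Mmp9 ran in both directions. T cell-like cells, all of cluster 13, stood at 109 CPM in pIVCL (66.5 to 168) and 178 CPM in Control (149 to 210), a ratio of 0.614 (0.363 to 0.986). After thinning each cell to 1000 UMIs, 11.3% of pIVCL and 12.8% of Control T cell-like cells held Mmp9, against 18.3% and 49.7% before it, and the intervals of the thinned shares overlapped. Kupffer-like cells stood at 5.03 CPM in pIVCL (1.85 to 10.9) and 37.2 CPM in Control (27.7 to 48.9), where 1 Control cell held 11 UMIs. The class joined clusters in different mixes. Cluster 1, with 625 pIVCL and 186 Control cells, stood at 1.62 CPM (0.0409 to 9.01) and 16.9 CPM (5.49 to 39.4), with intervals that overlapped. Cluster 10, with 150 and 136 cells, stood at 8.71 CPM (2.83 to 20.3) and 42.8 CPM (31.3 to 57.0). Vascular endothelial-like cells stood at 21.7 CPM in pIVCL (12.2 to 35.8) and 2.86 CPM in Control (0.780 to 7.33), but different clusters held most of the class: cluster 16 had 88 of its pIVCL and 39 of its Control cells, and cluster 14 had 25 and 129. Within cluster 16 the levels were 22.0 CPM in pIVCL (11.7 to 37.7) and 10.7 CPM in Control (2.92 to 27.4), with intervals that overlapped. Hepatocyte-like cells, which should lack the gene, stood at 0.136 and 0.155 CPM.

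Some barcodes rich in granule RNA lay outside the neutrophil-like cells. In pIVCL 38 of the 45 secondary-rich barcodes were neutrophil-like, 3 hepatocyte-like, 3 monocyte/macrophage-like and 1 in an unnamed cluster. The 3 hepatocyte-like ones had 24148, 23819 and 25564 UMIs, with 256, 127 and 95 secondary granule and 801, 636 and 576 calprotectin UMIs beside 1161, 1640 and 1232 Alb UMIs. They held the RNA of hepatocytes and of granulocytes at once. Of the 94 calprotectin-rich pIVCL barcodes 82 were neutrophil-like, and 1 Kupffer-like cell held 404 calprotectin UMIs. In Control all 3 calprotectin-rich barcodes were neutrophil-like.

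Calprotectin RNA was found at a low level in every pIVCL class of at least 50 cells. This and the next paragraph take barcodes with under 10 UMIs of each gene group, outside neutrophil-like cells. LSEC-like and unnamed clusters apart, there were 10 such classes in pIVCL, where it ran from 18.9 CPM in hepatocyte-like to 233 CPM in erythroid-like cells. Over 8 such classes of Control it ran from 0 to 4.37 CPM, with 3 at 0. B cell-like cells stood at 101 CPM in pIVCL (87.8 to 116) and at 0 of 457158 UMIs in Control. That is 15.4-fold a floor of 3 UMIs over the Control class, and the interval of the ratio starts at 12.4. Kupffer-like cells stood at 115 CPM in pIVCL and 4.37 CPM in Control. Hepatocyte-like pIVCL cells had the lowest CPM of the 10 classes but the most per cell, with 383 calprotectin UMIs in every 1000 cells at a median depth of 20710 UMIs, and B cell-like cells had 203 at 1839.

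**Figure D4:**
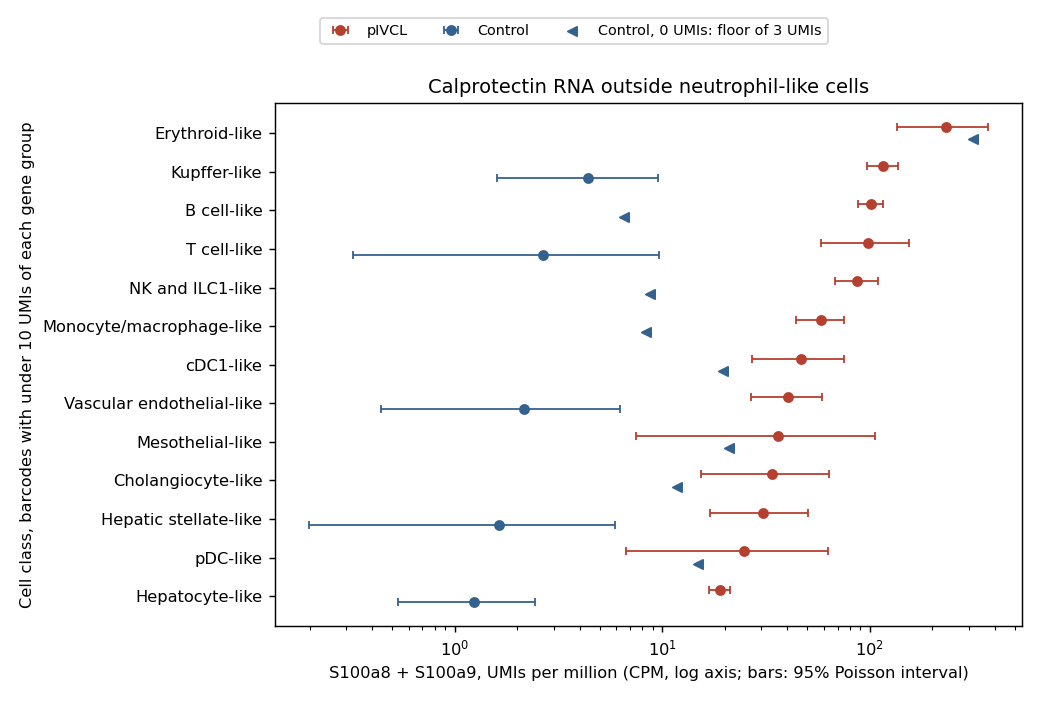
Summed S100a8 and S100a9 level in CPM (log axis) by cell class, pIVCL above Control in each row, in barcodes with under 10 UMIs of each granule gene group; bars are 95% Poisson intervals and triangles the level of 3 UMIs where a Control class has 0. In pIVCL the points run from 18.9 to 233 CPM, and B cell-like cells of Control are at 0.

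Neutrophil-like cells and these low-level cells were compared by the ratio of one granule gene to another; the source of the low-level RNA was not tested. S100a9 over S100a8 was 1.28 in neutrophil-like cells of pIVCL (1.26 to 1.29) and 1.28 in all its other cells below the cuts (1.14 to 1.44). By class it was 1.29 in hepatocyte-like (1.01 to 1.65), 1.32 in B cell-like (0.996 to 1.75) and 1.08 in Kupffer-like cells (0.759 to 1.53). Vascular endothelial-like cells stood at 3.67 (1.44 to 11.1), on 22 and 6 UMIs. Secondary granule over calprotectin UMIs was 0.236 in neutrophil-like cells (0.233 to 0.240) and 0.197 in the other cells (0.170 to 0.227), with intervals that did not overlap. Camp over Ngp was 1.45 in neutrophil-like cells (1.41 to 1.50) and 1.58 in the other cells (1.18 to 2.11).

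Shares of cells with a calprotectin UMI were set beside those of hepatocyte-like and B cell-like cells, which should lack the genes. After thinning each cell to 1000 UMIs, without leaving out rich barcodes, 1.94% of hepatocyte-like (1.06% to 3.23%), 9.08% of B cell-like (7.32% to 11.1%, 103 shallower cells left out) and 11.3% of T cell-like cells (4.99% to 21.0%) of pIVCL held one. Unthinned, 31.7% of hepatocyte-like cells held one, with 20762 UMIs in the median cell, 17.3% of B cell-like cells with 1839, and 25.4% of T cell-like cells with 2502. The thinned share of T cell-like cells lay within counting error of that of B cell-like cells, and the source of the RNA was not tested. At most 10% mitochondrial UMIs, with cells clustered and named anew, gave hepatocyte-like cells a thinned share of 7.88% (5.95% to 10.2%). Its interval overlapped that given for B cell-like cells, so no order is read from it. That class was not the same set of barcodes, because the limit removed most hepatocyte-like cells used above. Their median mitochondrial share was 18.0% in those with a Prtn3 UMI and 19.5% in those without.

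Prtn3 was spread more widely than the other primary genes. In hepatocyte-like cells of pIVCL it had 116 UMIs in 87 of 723 cells (12.0%, 9.75% to 14.6%), of which 68 held 1 UMI and 19 held 2 to 4. In Control hepatocyte-like cells it had 2 UMIs in 226 cells, though these were deeper, with median UMIs of 20762 in pIVCL and 29104 in Control. The levels were 7.91 CPM in pIVCL (6.54 to 9.49) and 0.310 CPM in Control (0.0375 to 1.12), a ratio of 25.5 (6.91 to 213). The hepatocyte-like cells were 722 of 723 in cluster 4 for pIVCL and 218 of 226 in cluster 12 for Control.

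Elane did not accompany it. Elane had 5 UMIs in the same pIVCL cells, Mpo and Ctsg together 2. Prtn3 over Elane was 23.2 in hepatocyte-like cells (9.66 to 72.8), 1.21 in monocyte/macrophage-like cells (1.07 to 1.37) and 2.40 in neutrophil-like cells (1.28 to 4.72) of pIVCL. The hepatocyte-like interval overlapped neither of the latter. It did overlap those of B cell-like (2, 0.287 to 22.1) and LSEC-like cells (2, 0.104 to 118), which held few UMIs. In the neutrophil-like cells 1 barcode held 28 of the 36 Prtn3 and 14 of the 15 Elane UMIs. In the monocyte/macrophage-like cells the 3 upper-tier barcodes held 410 of the 607 Prtn3 and 454 of the 501 Elane UMIs. The 9 lower-tier barcodes held 168 Prtn3 and 46 Elane UMIs. The unnamed pIVCL clusters held a further 33 Prtn3 UMIs to 1 of Elane (5.52 to 1342). Cells of cluster 9 below the cuts had 29 Prtn3 UMIs to 1 of Elane (4.81 to 1184), an interval that overlapped the hepatocyte-like one. These cells held 13 UMIs of Elane, Mpo and Ctsg together. Hepatocyte-like cells below the cuts held 7, beside 116 of Prtn3.

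Prtn3 was lower in 3 other pIVCL classes, with intervals under that of hepatocyte-like cells. B cell-like cells of pIVCL stood at 1.91 CPM of Prtn3 (0.522 to 4.90), LSEC-like cells, the sinusoidal endothelium, at 1.11 CPM (0.134 to 4.00) and Kupffer-like cells at 1.68 CPM (0.203 to 6.06). Other classes had intervals that overlapped it, such as T cell-like (5.45 CPM, 0.138 to 30.3) and hepatic stellate-like cells (4.06 CPM, 0.492 to 14.7). Unnamed cluster 19, led by Cdc20 among others, stood higher, at 16.2 CPM (10.0 to 24.7). It held 21 Prtn3 UMIs in 15 of 74 pIVCL cells and 0 of Elane, with Alb at 36648 CPM and calprotectin at 13.9 CPM. Within hepatocyte-like pIVCL cells 29.9% of those with a Prtn3 UMI and 31.9% of those without held calprotectin. Plppr3, which overlaps Prtn3 on the other strand, was at 0 in the 723 pIVCL cells and had 1 UMI in the 226 Control cells. After thinning to 1000 UMIs 0.138% of the pIVCL cells held Prtn3, near the level of 1 UMI, from which nothing is read.

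Prtn3 also differed between hepatocyte-like clusters of pIVCL at the finer resolution. It stood at 12.0 CPM (9.58 to 14.8) in cluster 10, led by Cyp2a5 and Cyp1a2, and at 4.14 CPM (2.81 to 5.87) in cluster 7, led by Cyp2f2, a ratio of 2.90 (1.90 to 4.52). Calprotectin also differed between these clusters, with 302 CPM in cluster 10 and 39.8 CPM in cluster 7. At the main clustering, however, 5 hepatocyte-like pIVCL barcodes held 2165 of the 2440 calprotectin UMIs of their class. The calprotectin levels are therefore not read as those of most cells of a cluster. The part of calprotectin in the Prtn3 difference was not tested. Cyp2e1, a cytochrome P450 of pericentral hepatocytes, stood at 1490 CPM in cluster 10 and 61.3 CPM in cluster 7, and Cyp2f2, of periportal hepatocytes, at 459 and 1862 CPM. Control hepatocyte-like cells lay mainly in a cluster led by Glul and Cyp2e1 among others, and their Prtn3 was low.

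**Figure D5:**
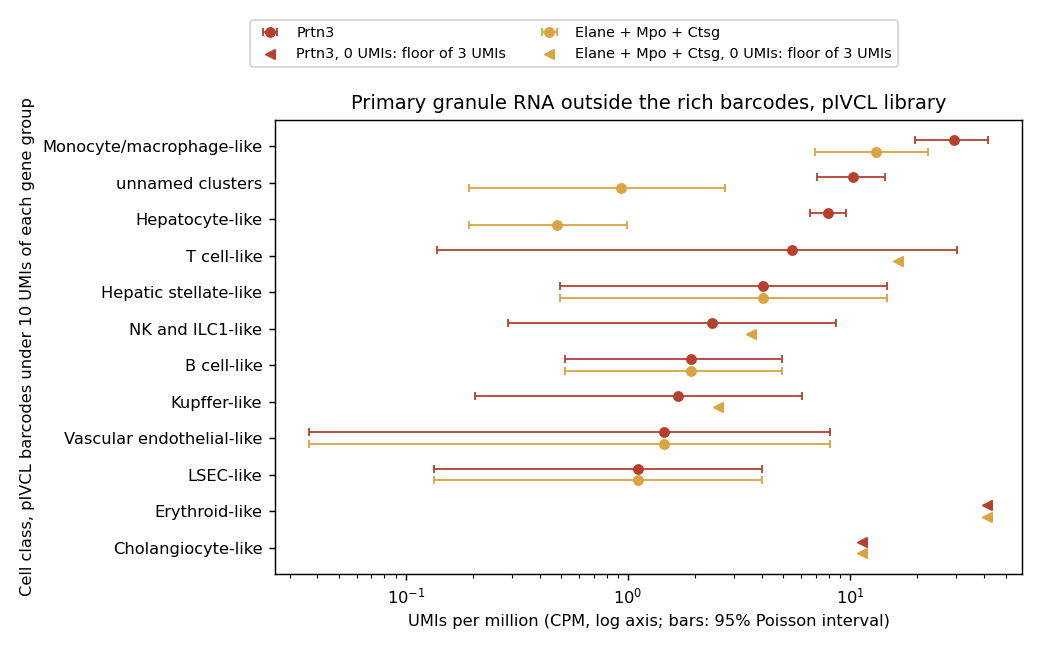
Level of Prtn3 and of Elane, Mpo and Ctsg summed, in CPM (log axis), by cell class of pIVCL in barcodes with under 10 UMIs of each granule gene group; bars are 95% Poisson intervals and triangles the level of 3 UMIs where a class has 0. In hepatocyte-like cells Prtn3 is at 7.97 CPM and the other 3 genes together at 0.481 CPM, and their intervals do not overlap.

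The genes most like each group over the 24 pIVCL clusters were ranked by Pearson's r of log2(CPM + 20), a description over clusters that share a library and depth differences. For the primary genes these were Ms4a3 (r of 0.96), Prss57 (0.94), Lilra6 (0.92), Gm9733 (0.90) and AI839979 (0.89). Primary-rich barcodes held 80.8% of pIVCL Ms4a3 UMIs and 3.39% of those of Gm9733. For the secondary genes they were Slfn4 (0.97), Fcnb, Padi4, AA467197 and Mrgpra2b (0.96 each). For calprotectin they were Retnlg (0.94), Clec4d (0.92), Trem1 (0.92), Mmp8 (0.91) and Clec5a (0.91).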

How the data were processed

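Per the labels, liver cell suspensions were profiled with a 10x Genomics 3′ kit. The authors deposited UMI counts per gene and barcode, with no normalization, made with Cell Ranger 3.0.2 on mm10 per the submitters' processing notes. Barcodes with at least 500 UMIs, 200 genes and at most 25% mitochondrial UMIs were kept, called doublets (Scrublet in scanpy 1.11.5) removed. Cells were clustered together with leidenalg 0.10.2 (resolution 1; finer: 2) on 20 neighbours, 30 components and 2000 variable genes that left out the 10 members, and clusters were named "X-like" from markers. Of 31053 identifiers, 30934 matched GENCODE M21.

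UMIs were summed and scaled to CPM, with exact Poisson intervals. Shares have exact (Clopper-Pearson) intervals, and ratios conditional exact binomial ones. Log2 ratios add 20 CPM. A count of 0 has a floor of 3 UMIs. LSEC-like clusters were not compared between libraries, because leading genes of another class stood among those of clusters 7 and 8, though not of cluster 3. Clusters 6 and 9 had such a gene too, and cluster 9, described as mixed, was compared. Members and lists were chosen with earlier results of these data known. The genes named are the members, the 5 genes most like each group, and up to 4 per list; other genes were chosen after their values were seen. Alternatives covered barcode filters, the 10-UMI cut, scaling, added CPM, thinning depth and clustering.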

Additional observations from a re-analysis of the deposited data

Results flagged for a closer look

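Barcodes that were left out of the kept cells, mostly for mitochondrial UMIs above the limit, held granule RNA that the comparisons of kept cells did not use. The 10 genes summed to 1087 UMIs in 1599 such pIVCL barcodes, 103 CPM (97.0 to 109), and to 26 UMIs in 856 Control barcodes, 5.36 CPM (3.50 to 7.85), so the pIVCL level stood above that of Control. In pIVCL 5 of these barcodes held 10 or more calprotectin UMIs, and 1 was rich in both primary and secondary granule genes. That barcode had 1374 UMIs, 30.1% of them mitochondrial, with 20 Prtn3, 6 Elane, 2 Mpo and 4 Ctsg UMIs beside 2 Ltf, 44 Ngp and 96 Camp UMIs.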

How the results depend on the processing

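No paired analysis was possible because each group held 1 library and no test was made. At most 10% mitochondrial UMIs moved the ratios to 4.64 (primary), 17.4 (secondary), 12.3 (calprotectin) and 2.23 (Mmp9). It moved the share of primary UMIs in primary-rich barcodes to 95.5%. Cells were clustered and named anew under that limit, so its hepatocyte-like class was not the same set of pIVCL barcodes. The calprotectin level of that class was 86.7 CPM, against 166 as reported, and its thinned share was 7.88%. Every deposited barcode gave ratios of 10.7 (secondary) and 7.40 (calprotectin) and 2 barcodes rich in both groups. Totals without mitochondrial and the 50 most abundant genes gave 12.98 (secondary) and 9.02 (calprotectin). A cut of 20 UMIs left 8 primary-rich barcodes with 85.2% of primary UMIs. Adding 1 CPM called 15.4% of all genes, against 4.07% with 20 CPM. Of alternatives chosen after the data were seen, leaving out the fullest barcode of each library gave 177 (primary), 2752 (secondary) and 34.3 (calprotectin), leaving out neutrophil-like cells gave 0.216 (Mmp9, reversed), and leaving out cells with 10 or more calprotectin UMIs gave 18.9 CPM in hepatocyte-like cells. The cause was not tested. The other 33 alternative values for these results stayed within the interval of the reported value, or for counts within 1.5 times. Single-gene log2 ratios kept their sign in all 30 alternatives, from 0.10 to 5.90. Outside 1 barcode, Control values rest on 6 primary and 5 secondary UMIs.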
